A study of Mus musculus with 5 samples.

Results

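Interferon response genes are the genes that cells switch on when an interferon receptor has been engaged, and 35 of them were examined here among the 27179 genes of the deposited tables. They were chosen by name as signalling factors, sensors and effectors of the response, with earlier results of these data known, and each symbol was matched to its Entrez identifier. All 35 were found. The mark measured was acetylation of histone H3 at lysine 14 (H3K14ac). It was read out with CUT&Tag: an antibody (abcam, ab52946) tethers the transposase Tn5 to chromatin that carries the mark, and the tagged DNA is sequenced. The cells were LSK cells, a sorted bone marrow fraction of male C57BL/6 mice that is lineage-negative and positive for Sca-1 and Kit and holds blood stem cells and early progenitors.

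There were 2 control libraries (genotype Hbo1def/+; T/+) and 2 knockout libraries (Hbo1def/def; T/+). Hbo1 is the gene Kat7, whose product acetylates H3K14, and the comparison asks how the mark differs once that enzyme is deleted. Both groups received poly(I:C), a double-stranded RNA mimic, to switch on Mx1-cre, so both had an interferon stimulus and there was no group without one. Mx1-cre places Cre recombinase under an interferon-inducible promoter and is not specific to 1 cell type. The labels do not spell out what T stands for, how long after poly(I:C) the cells were taken, or whether libraries came from different mice. The p-values therefore describe the spread among these libraries, which may be only technical. A library of the HBO1 (KAT7) protein itself was not analysed here, and neither was any RNA, so the values below are levels of a chromatin mark and not of transcripts.

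As background, double-stranded RNA is detected by the helicases RIG-I and MDA5 in the cytosol and by TLR3 in endosomes. These signal to factors of the IRF family, which switch on type I interferon genes. The secreted interferon binds its receptor, JAK kinases phosphorylate STAT2, and STAT2 joins IRF9 in a complex that binds an interferon-stimulated response element (ISRE) near the start of the target genes. The products destroy or sequester viral RNA, block entry and budding, and modify proteins with ISG15. In blood stem cells a pulse of interferon or poly(I:C) is known to push quiescent cells into cycle.

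The element is written in these promoters. The ISRE letters, GAAA followed by any 2 bases and GAAA again, searched on both strands from 250 bases before to 50 bases after the start of a RefSeq transcript (GRCm38.p6), were present in 16 of the 27 members found in the promoter table (59.3%), against 725 of 18458 genes (3.93%). The letters TTCNNNGAA, which are those of a STAT dimer site, were present in 10 of the 27 (37%), against 1665 of 18458 (9.02%). The 2 searches can hit overlapping bases. Mx1, Mx2, Oas2, Usp18, Ifi27l2a, Dhx58, Zbp1 and Parp14 were not matched to that table. The stretches below are shown because they belong to the genes whose values are given next. They run 5′ to 3′ on the gene's strand, and capitals mark every base in an ISRE match on either strand, or in the TTCNNNGAA match for Irf1.
Isg15 (chr4:156200860-156200911, minus strand): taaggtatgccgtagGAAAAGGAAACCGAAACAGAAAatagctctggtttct
Ifit1 (chr19:34640770-34640828, plus strand): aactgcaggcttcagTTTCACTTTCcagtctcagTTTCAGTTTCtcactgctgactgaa
Oas1a (chr5:120907526-120907560, minus strand): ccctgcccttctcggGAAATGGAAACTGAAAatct
Rsad2 (chr12:26456548-26456587, minus strand): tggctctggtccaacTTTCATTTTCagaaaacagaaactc
Stat2 (chr10:128270261-128270300, plus strand): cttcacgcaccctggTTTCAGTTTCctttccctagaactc
Bst2 (chr8:71537572-71537617, minus strand): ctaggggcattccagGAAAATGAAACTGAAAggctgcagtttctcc
Irgm1 (chr11:48871421-48871465, minus strand): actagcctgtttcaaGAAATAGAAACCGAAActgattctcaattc
Irf1 (chr11:53769909-53769947, plus strand): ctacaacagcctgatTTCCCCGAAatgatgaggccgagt

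In Isg15 there were 3 overlapping matches, between 78 and 57 bases before the start. Ifit1 had 2 separate matches, both on the opposite strand, between 104 and 76 bases before its start. Bst2 had 2 overlapping matches between 130 and 115 bases before the start, and those of Irgm1 lay between 30 and 15 bases before it. A match is a description of the letters and not evidence of binding.

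The deposited values are read counts per gene over 3 region classes: the 5 kb before the start, the gene body, and the 5 kb after the end. Library totals ran from 869859 to 1164409 counts upstream, from 4723549 to 12386891 over gene bodies and from 677213 to 1260351 downstream, and both knockout libraries were the shallower over gene bodies and downstream. Kat7 itself had upstream levels of 45.1 and 40.6 CPM (counts scaled to library size) in the controls and 19.3 and 24.4 in the knockouts, and body levels of 30.7 and 30.1 against 88.2 and 39.1 CPM. These regions span the whole gene and do not single out the deleted part, so they are no check of the deletion. Genes of olfactory and vomeronasal receptors, which serve sensory neurons, had a median upstream level of 29.2 CPM in the controls and 14.5 in the knockouts, while the median over all regions tested was 30.1 and 34.2 CPM. No spike-in is given in the sources used here, so every fold is relative to the scaling, and the part of this shift in the results below was not tested. The LSK marker Kit had body levels of 132 and 130 CPM in the controls and 134 and 125 in the knockouts, and of 9 LSK markers 3 bodies were called higher (Flt3, Gata2 and Tal1) and 0 lower, with a median log2 fold of -0.02. Markers of other cell types carried counts as well, and the reason was not tested. The summed body level of 5 plasmacytoid dendritic cell markers, a cell type that makes much interferon, was 144 and 131 CPM in the controls and 94.1 and 95.1 in the knockouts. Other sums were lower too, at 945 and 832 against 378 and 511 CPM for B cell markers and 453 and 393 against 279 and 347 CPM for endothelial markers. The LSK sum was also lower, at 1680 and 1490 against 1250 and 1350 CPM. A sum can hide single genes, since 2 of the 5 B cell marker bodies were higher in both knockouts. Sums of T cell markers (89 and 95.4 against 112 and 93.5 CPM) overlapped between the groups, as did those of neutrophil, monocyte and erythroid markers. A different mix of cells and a different amount of mark per cell cannot be told apart in such libraries.

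Upstream of the 35 members, H3K14ac was higher in the knockouts for 9 genes and lower for 1, at an edgeR adjusted p under 0.05. The 9 make up 25.7% of the members, and over all 23200 upstream regions 38.3% were called, 24% higher and 14.3% lower, so the share called higher was close to the background. The 9 were the transcription factors Irf1, Irf7 and Stat2, the sensor gene Ifih1, the RIG-I ubiquitin ligase gene Trim25, the effectors Bst2, Samhd1 and Irgm1, and Ifi35. The median log2 fold over the members was 0.58 against -0.09 over all regions. In 18 members (51.4%) both knockout libraries lay above both controls, against 37.8% of all regions, and in 6 both lay below, against 39.9% of all. The groups were separate at some members and overlapped at others, as the plot of upstream levels shows. Such a mix was also present among all regions.

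**Figure D1:**
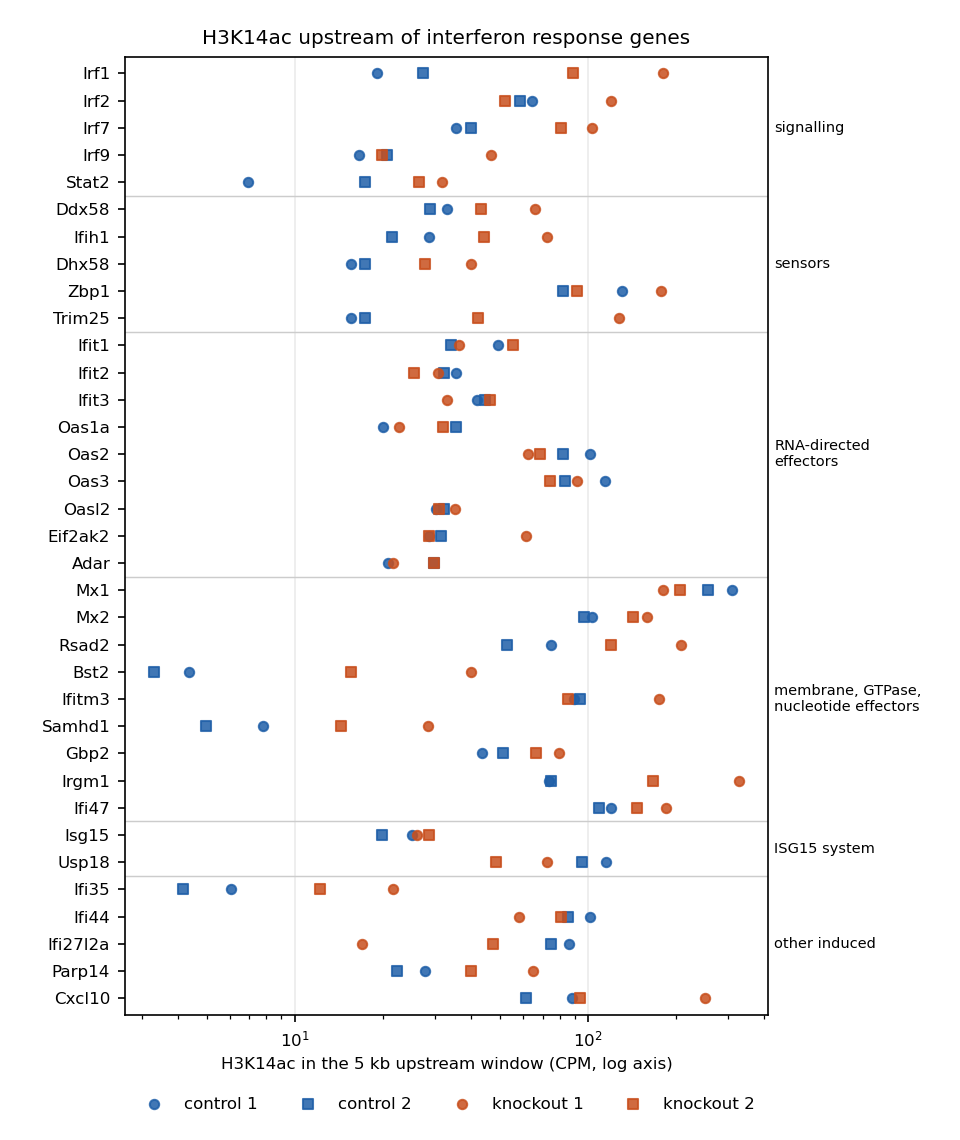
H3K14ac level in the 5 kb upstream window of each of the 35 genes (CPM, log axis), 1 point per library, with blue for controls, orange for knockouts, circles for replicate 1 and squares for replicate 2. Irf1, Trim25 and Bst2 have both orange points far to the right of both blue ones, most Ifit and Oas genes and Adar have overlapping points, and Mx1 has both blue points to the right.

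The 5 signalling factors had a median log2 fold of 1.25 upstream, and all 5 folds were above 0; without control replicate 1 the median was 0.75. Irf1, a transcription factor that binds the response element and is itself induced by interferon, had upstream levels of 19.1 and 27.3 CPM in the controls and 180 and 88.6 CPM in the knockouts. Both knockout libraries lay well above both controls, and the log2 fold was 2.52 (SE 0.56, adjusted p = 0.000123). Its window stood at the 37.2 percentile of all upstream levels in the controls and at the 95.8 percentile in the knockouts. Irf7, the factor that amplifies type I interferon production, had 35.6 and 39.8 CPM in the controls against 103 and 80.9 CPM, a log2 fold of 1.29 (SE 0.51, adjusted p = 0.0333). Stat2, a subunit of the ISRE-binding complex, had 6.94 and 17.4 CPM against 31.8 and 26.6 CPM, a log2 fold of 1.25 (SE 0.52, adjusted p = 0.043), and its window also holds the start of the neighbouring gene Apof.

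The remaining signalling factors did not pass the test upstream. Irf9, the DNA-binding partner of STAT2, had 16.5 and 20.7 CPM in the controls and 46.6 and 19.9 in the knockouts (log2 fold 0.83, adjusted p = 0.157), so only knockout 1 stood out. Irf2, which competes with Irf1 for the same element, had 64.2 and 58.8 CPM against 120 and 52.1 CPM, and the groups overlapped. With library totals in place of TMM, 5 of the 10 upstream calls were lost, those of Irf7, Stat2, Ifih1, Samhd1 and Ifi35.

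Among the sensors, Ifih1, which encodes MDA5, the cytosolic receptor for long double-stranded RNA and for poly(I:C), had upstream levels of 28.6 and 21.5 CPM in the controls and 72.7 and 44.3 CPM in the knockouts. The groups did not overlap, and the log2 fold was 1.22 (SE 0.46, adjusted p = 0.0274). Trim25, the ubiquitin ligase that acts on RIG-I, had 15.6 and 17.4 CPM against 128 and 42.1 CPM, a log2 fold of 2.36 (SE 0.5, adjusted p = 5.65e-05). Ddx58, which encodes RIG-I, was higher in both knockout libraries (65.9 and 43.2 CPM against 33 and 29 CPM), but its log2 fold of 0.81 did not pass (adjusted p = 0.141). Dhx58, which encodes LGP2, a helicase that tunes MDA5 and RIG-I, behaved likewise upstream (log2 fold 1.02, adjusted p = 0.084). Zbp1, a sensor of Z-form nucleic acid, had one of the higher control levels at 131 and 82 CPM, and its knockout levels of 178 and 92 CPM overlapped them.

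The effectors that act on RNA had the upstream median fold closest to 0 among the members' role groups, with TMM scaling. They are the IFIT proteins, which bind foreign RNA ends, the OAS enzymes, which activate RNase L, the kinase PKR (Eif2ak2), which halts translation, and the editing enzyme Adar. None of these 9 genes was called upstream, at 0 of 9 by edgeR, 0 at an unadjusted p under 0.05 and 0 by DESeq2. Of all upstream regions edgeR called 38.3% in either direction. The log2 folds of the 9 ran from -0.49 to 0.58. Their median was -0.02, but it was -0.21 with library totals and 0.5 with totals pooled over the region classes. With scaling on the olfactory and vomeronasal receptor genes (receptor scaling) it was 0.85, so no direction holds for the group. Ifit1, with its pair of ISRE matches shown above, had 49.5 and 34 CPM in the controls and 36.4 and 55.4 CPM in the knockouts. Oas1a had 20 and 35.6 CPM against 22.7 and 32.1 CPM. In both genes the 2 groups span the same range. With standard errors between 0.45 and 0.56 on the log2 scale, a fold that did not pass does not show equal levels.

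Log2 folds of the 9 membrane, GTPase and nucleotide effectors ran from -0.56 to 2.81 upstream. Bst2, or tetherin, which holds budding virus at the cell surface, had the lowest control level of any member at 4.34 and 3.31 CPM, at the 0.647 percentile of all upstream regions. In the knockouts it had 39.8 and 15.5 CPM, a log2 fold of 2.81 (SE 0.61, adjusted p = 7.33e-05), which brought it to the 37.7 percentile, still below the middle of all regions. Samhd1, which degrades the nucleotides a virus needs, was similar in form, with 7.81 and 4.97 CPM against 28.4 and 14.4 CPM (log2 fold 1.73, SE 0.58, adjusted p = 0.0116). Irgm1, a GTPase of the response to intracellular pathogens, was already well marked at 73.8 and 74.6 CPM in the controls and had 327 and 167 CPM in the knockouts. That is a log2 fold of 1.74 (SE 0.71, adjusted p = 0.0397), and it made Irgm1 one of the more strongly marked windows of the knockouts, at the 99.1 percentile. Rsad2, or viperin, an enzyme that makes a chain-terminating nucleotide, had 74.6 and 53 CPM against 208 and 120 CPM. Its groups did not overlap, but the log2 fold of 1.36 did not pass (SE 0.61, adjusted p = 0.0638).

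Mx1, the gene whose promoter drives Cre in this model, was the member with the highest upstream level in the controls, at 311 and 257 CPM. It ranked 12 from the top of 23200 upstream regions in the controls and 404 in the knockouts, where it had 180 and 206 CPM. Both knockout libraries lay below both controls, but the log2 fold of -0.56 had an SE of 0.82 and did not pass (adjusted p = 0.589), and its sign turned with pooled totals (0.01) and with receptor scaling (0.4). Over the Mx1 body the levels were 45.2 and 39 CPM against 39 and 39.2 CPM. Reads from a promoter copy in the Mx1-cre transgene and from the native gene cannot be told apart in these counts. Both genotypes include T/+, which the labels do not spell out. Its neighbour Mx2, 73.2 kb away, had 103 and 97 CPM in the controls and 159 and 143 CPM in the knockouts (log2 fold 0.59, adjusted p = 0.445).

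The ubiquitin-like modifier Isg15 had low upstream levels of 25.2 and 19.9 CPM against 26.1 and 28.8 CPM, with a log2 fold of 0.29 (adjusted p = 0.646). Usp18, the protease that removes ISG15 from proteins and restrains the receptor, had 115 and 95.3 CPM against 72.7 and 48.7 CPM, and its log2 fold of -0.79 did not pass (adjusted p = 0.227). Among the other induced genes, Ifi27l2a was the single member called lower upstream, with 85.9 and 74.6 CPM in the controls and 17 and 47.6 CPM in the knockouts. Its log2 fold was -1.31 (SE 0.5, adjusted p = 0.028), and the call was lost with pooled totals, receptor scaling and the DESeq2 Wald test. Ifi35, which encodes an interferon-induced leucine zipper protein, had 6.08 and 4.14 CPM against 21.6 and 12.2 CPM (log2 fold 1.7, SE 0.61, adjusted p = 0.0184). Cxcl10, a chemokine that draws T cells, had 88.5 and 61.3 CPM against 250 and 94.2 CPM, and the log2 fold of 1.2 rested mostly on knockout 1 (adjusted p = 0.112).

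**Figure D2:**
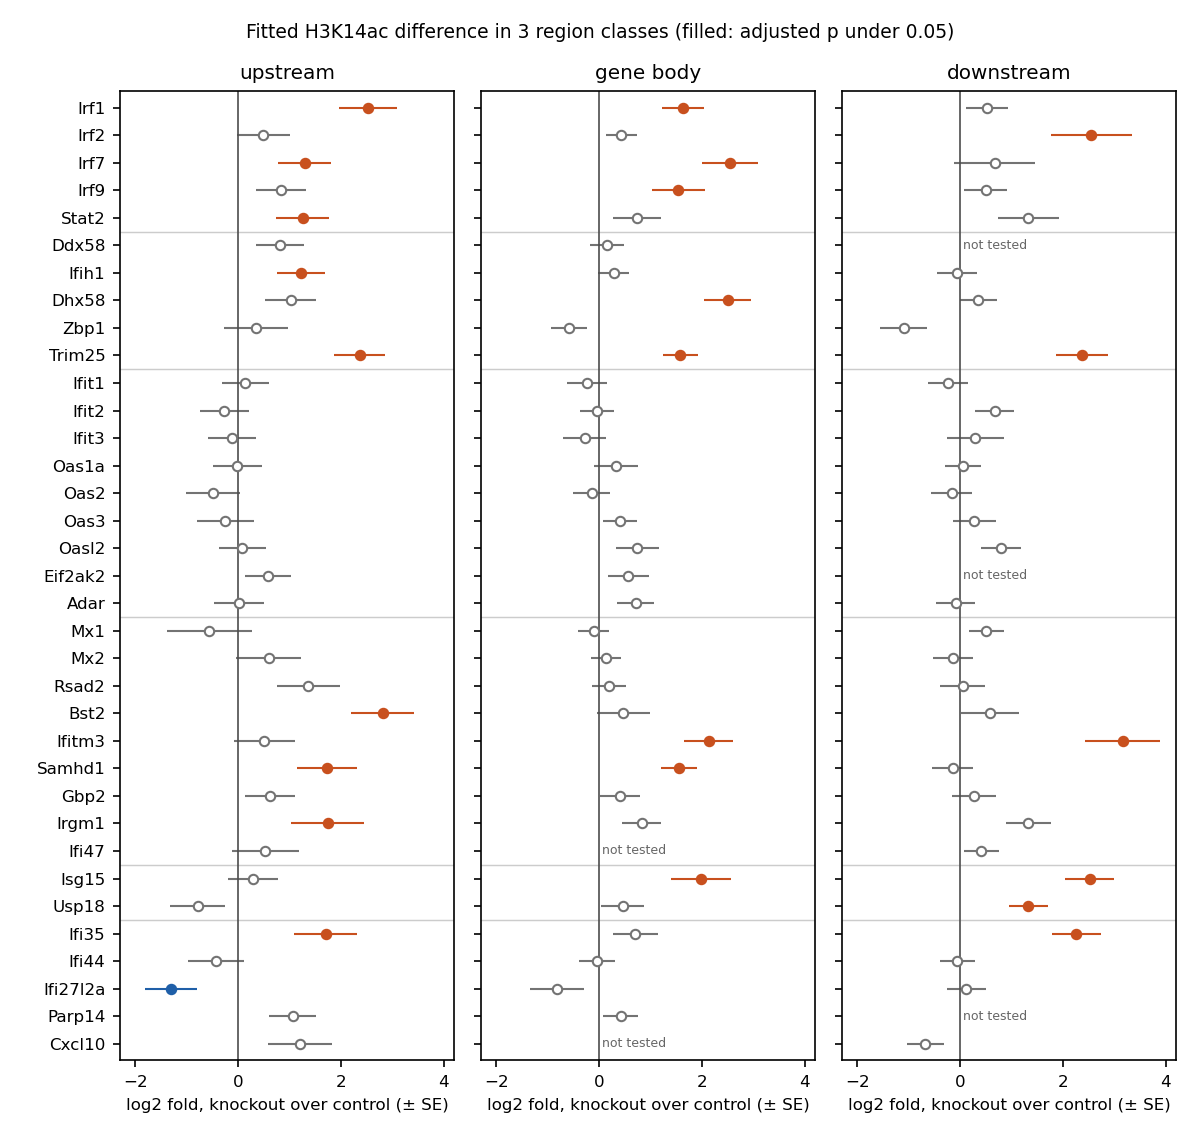
Fitted log2 fold of H3K14ac, knockout over control, with its standard error as a bar, for the 35 genes in the upstream, gene body and downstream classes. Filled orange points were called higher and the filled blue point lower at an adjusted p under 0.05. Trim25 is filled in all 3 panels, and the block from Ifit1 to Adar has open points wherever tested. Eif2ak2 was not tested downstream and has no point there.

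Over gene bodies 33 members were tested, and 8 were called higher (24.2%, against 23.1% of all 21393 bodies tested, where 38.3% were called in either direction). None was called lower, against 15.2% of all bodies, at 0 by edgeR, 0 at an unadjusted p under 0.05 and 0 by DESeq2. The bodies of Ifi47 and Cxcl10 had no count in any library. The Cxcl10 body lies wholly inside the span of Art3, and of the 1587 gene bodies that lie wholly inside other genes 80.3% had no count in any library, against 2.1% of those that overlap none. The RefSeq span of Ifi47 overlaps no other gene. Ifit1 lies wholly inside Ifit1bl1, yet its body had 160 and 195 counts in the controls and 67 and 117 in the knockouts. Why the bodies of Ifi47 and Cxcl10 had no counts was not tested. The median log2 fold of the members was 0.43 against 0.02 over all bodies, and in 21 members (63.6%) both knockout libraries lay above both controls, against 40.6% of all bodies, while 3 lay below both, against 39.4% of all.

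Irf7 had body levels of 0.457 and 0.611 CPM per kb in the controls and 3.88 and 2.44 CPM per kb in the knockouts, a log2 fold of 2.55 (SE 0.54, adjusted p = 0.000176). Dhx58 had 0.316 and 0.464 CPM per kb against 3.09 and 1.33 CPM per kb, a log2 fold of 2.5 (SE 0.46, adjusted p = 2.05e-05). Both thus moved from the lower part of the distribution to near its top, Irf7 from the 32.1 to the 94.6 percentile and Dhx58 from the 21.1 to the 89.8. Ifitm3, which blocks the fusion of virus with the endosome, already had one of the densest bodies in the controls at 2.74 and 4.11 CPM per kb and had 22.6 and 7.62 CPM per kb in the knockouts (log2 fold 2.13, SE 0.48, adjusted p = 0.000396). Isg15 had 0.567 and 0.851 CPM per kb against 3.58 and 2.14 CPM per kb (log2 fold 1.98, SE 0.59, adjusted p = 0.00653), a body difference beside an upstream window that did not pass. The other bodies called higher were Irf1 (log2 fold 1.63), Trim25 (1.58), Samhd1 (1.56) and Irf9 (1.54). Signalling factors thus had 3 of 5 bodies called higher and the sensors 2 of 5, beside 23.1% of all bodies. With 5 genes in each group, these counts were not tested against that share.

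The 9 effectors that act on RNA again had 0 bodies called by edgeR, with 0 at an unadjusted p under 0.05 and 0 by DESeq2. Of all bodies edgeR called 38.3% in either direction. The median log2 fold of the 9 was 0.32. With library totals that median was 0.65 and 1 of the 9 was called. Ifit3 had 2.21 and 2.47 CPM per kb in the controls and 1.87 and 2 CPM per kb in the knockouts, and both knockout libraries were below both controls without passing (log2 fold -0.28, adjusted p = 0.62). Ifi27l2a, the gene called lower upstream, had 4.7 and 4.31 CPM per kb over its body against 2.44 and 2.66 CPM per kb. The libraries were separate there too, but the log2 fold of -0.82 did not pass (adjusted p = 0.199). Of its RefSeq span of 9808 bases, 61.8% overlaps the span of Ifi27. The deposited length is 1514 bases, so that share need not hold for the counted body.

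**Figure D3:**
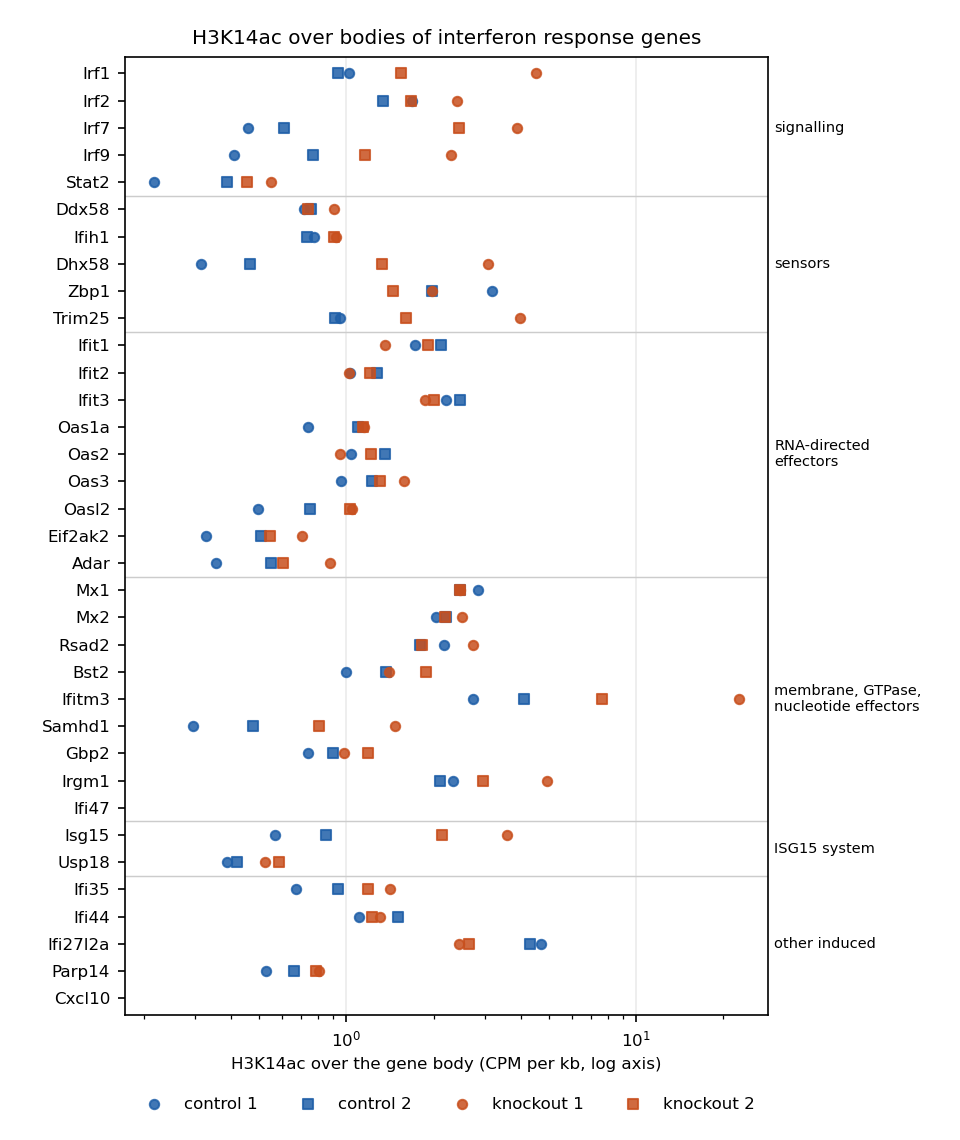
H3K14ac level over the body of each gene (CPM per kb of the deposited length, log axis), 1 point per library, coloured and shaped as in the plot of upstream levels. Irf7, Dhx58, Ifitm3, Samhd1 and Isg15 have both orange points right of both blue ones, Ifi27l2a has them to the left, and Ifi47 and Cxcl10 had no counts and have no point.

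Downstream of the end, 32 members were tested and 6 were called higher (18.8%, against 10.8% of all 21566 regions, where 13.1% were called in either direction). None was called lower by edgeR, against 2.29% of all regions, with 1 (Zbp1) at an unadjusted p under 0.05 and 0 by DESeq2. Ddx58, Eif2ak2 and Parp14 had too few counts downstream to be tested. The largest difference was at Ifitm3, with 30.5 and 36.7 CPM in the controls and 453 and 152 CPM in the knockouts (log2 fold 3.16, SE 0.73, adjusted p = 0.00743). Irf2 had 61 and 59 CPM against 483 and 223 CPM (log2 fold 2.55, SE 0.79, adjusted p = 0.0407), although its upstream window and its body did not pass. Isg15 had 14.1 and 18.4 CPM against 144 and 47.5 CPM (log2 fold 2.52, SE 0.47, adjusted p = 0.00177), and that window also holds the start of Agrn.

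The other 3 regions called downstream were those of Trim25 (log2 fold 2.37), Ifi35 (2.26) and Usp18 (1.33). Usp18 thus had a downstream region that rose beside an upstream window whose levels were lower in both knockout libraries without passing. Zbp1 had 160 and 93.4 CPM downstream in the controls and 44.7 and 72.5 CPM in the knockouts, a log2 fold of -1.1 that did not pass (adjusted p = 0.13). The median log2 fold of the members downstream was 0.38 against -0.03 over all regions. In 15 members (46.9%) both knockout libraries lay above both controls there, against 29.9% of all regions, and in 2 both lay below, against 32.7%.

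Across the 3 region classes 15 of the 35 members were called higher in at least 1, and 19 were called in none. Of all regions, 24% were called higher upstream, 23.1% over bodies and 10.8% downstream. The share of all genes called higher in at least 1 class was not worked out, so these counts do not set the members apart. Trim25 was the single member called higher in all 3. Irf1, Irf7, Samhd1 and Trim25 were higher upstream and over the body, while Isg15, Ifitm3 and Trim25 were higher over the body and downstream. The 3 classes come from the same libraries and are not independent.

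Every member called higher had a higher level in knockout 1 than in knockout 2, at 9 of 9 upstream, 8 of 8 over bodies and 6 of 6 downstream. Over the members tested upstream, 74.3% were higher in knockout 1, against 48.3% of all regions. The shares were 72.7% against 50.3% over bodies and 65.6% against 49.4% downstream. Upstream, knockout 1 was also the higher in 19 of 21 interferon receptor and upstream signalling genes, whose median log2 fold was 1.41. It was the higher in 4 of 20 interferon genes, whose median was -0.91. The share among all regions called higher was not worked out, so these counts do not set the members apart. Without knockout replicate 1 the log2 fold of Irf1 was 1.96, that of Trim25 1.38 and that of Bst2 2.03. No upstream region of any gene was called by edgeR in that setting (5770 at an unadjusted p under 0.05), so the loss of the members' calls there says nothing particular about them. Leaving out control 1 or control 2 also ended all 10 upstream calls, where 73 and 914 regions were called in all, and leaving out knockout 2 kept 4 (Irf1, Trim25, Bst2 and Irgm1), where 2303 were. Dhx58 over its body and Isg15 downstream kept their calls in each of the 12 and 11 planned settings that tested them. Over bodies, leaving out control 1 kept 2 of the 8 calls, leaving out control 2 kept 5, and leaving out knockout 1 or knockout 2 kept 3 or 8. Downstream the same omissions kept 1, 2, 5 and 6 of the 6 calls. Irf2 and Usp18 were the least steady downstream, each keeping its call in 5 settings.

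Upstream calls were more frequent among members with a CpG-rich start, a difference that was not tested among the members. The ratio of observed to expected CpG from 250 bases before to 50 after the annotated gene start, which is high in CpG islands, was at least 0.6 in 9 members. Of these 9, 5 were called higher upstream (55.6%; Irf1, Stat2, Ifih1, Trim25 and Samhd1), with a median log2 fold of 1.22. Among the 26 members with a lower ratio 4 were called higher (15.4%) and 1 lower, with a median of 0.43. The same contrast held over all regions tested, where 43.1% of windows with a high ratio were called higher against 12% of those with a low one, and 3.44% against 21.5% were called lower. Another gene's start lay in the upstream window of 4 members (Irf2, Stat2, Ifit1 and Isg15), of which 1 was called higher; over all regions 50.3% of such windows were called higher against 21% of the others. Over gene bodies 3 of 9 members with a high ratio (33.3%) and 5 of 24 with a low one (20.8%) were called higher, where all bodies gave 36.5% and 12.7% higher and 7.93% and 21.2% lower. Downstream it was 3 of 7 (42.9%) and 3 of 25 (12%), where all regions gave 14.8% and 8.05% higher and 1.19% and 2.98% lower. Upstream, Usp18 departed from the contrast, with a ratio of 0.755 and a log2 fold of -0.79 that did not pass, and so did Bst2, with a ratio of 0.516 and the highest fold of the 35.

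**Figure D4:**
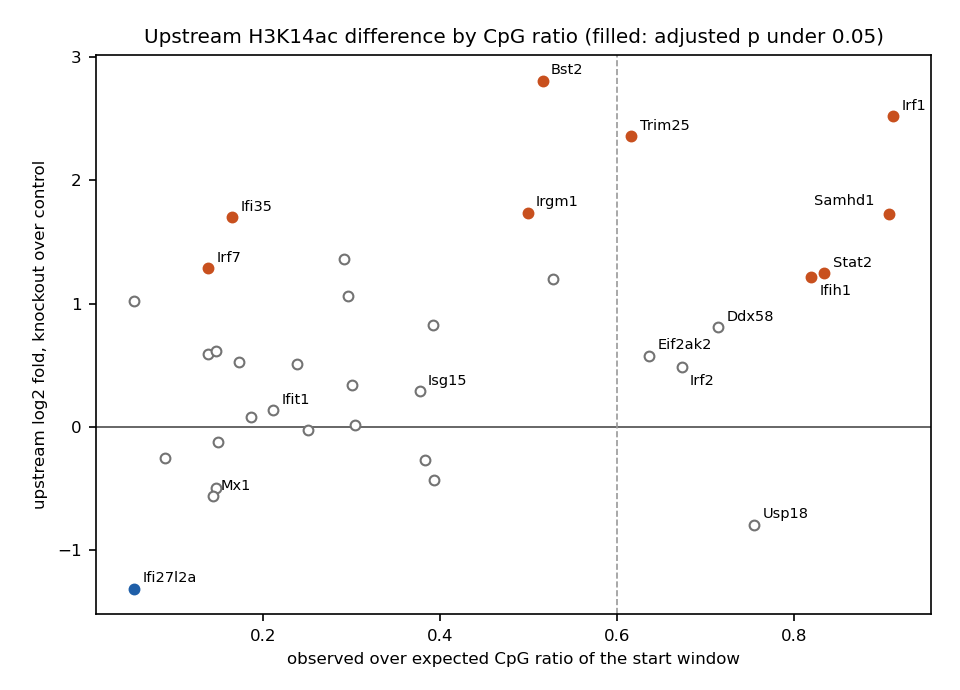
Upstream log2 fold, knockout over control, of each of the 35 genes against the observed over expected CpG ratio around its start; filled points passed an adjusted p of 0.05 and the dashed line marks a ratio of 0.6. Right of the line 5 of 9 points are filled orange, and left of it 4 of 26 are.

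For the response element the shares ran the other way, in few genes and without a test. Over all upstream regions 24% were called higher, and shares for all genes with and without a match were not worked out. Of the 16 members with an ISRE match 4 were called higher upstream, with a median log2 fold of 0.6, and of the 11 without one 5 were, with a median of 0.83. For TTCNNNGAA, 4 of the 10 members with a match and 5 of the 17 without one were called higher. Isg15, with 3 ISRE matches, did not pass upstream, and Bst2 and Irgm1, with 2 each, did.

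The machinery before the response was set beside the members. Of 21 receptor and upstream signalling genes tested, 14 were called higher upstream and 0 lower (0 lower at an unadjusted p under 0.05 and 0 by DESeq2), with a median log2 fold of 1.41, where 24% of all regions were called higher. The number called higher was 15 with pooled totals, 10 with library totals and 4 with the replicate number as a block. With a library left out the median log2 fold ran from 0.85 to 1.86. Of all upstream windows with a CpG ratio of at least 0.6, 43.1% were called higher. Shares by CpG ratio were not worked out for these genes. Both chains of the type I interferon receptor were among the 14. Ifnar1 had 29.5 and 19.9 CPM in the controls and 95.5 and 83.1 CPM in the knockouts (log2 fold 1.85, SE 0.5, adjusted p = 0.00172), and Ifnar2 had 21.7 and 40.6 CPM against 172 and 70.9 CPM (1.95). The type II receptor chains Ifngr1 (2.28) and Ifngr2 (2.53), the TLR3 adaptor Ticam1 (2.21) and the kinase Tbk1 (1.69) rose as well. Tlr3 itself had 96.3 and 97 CPM against 67.1 and 57.6 CPM, and its log2 fold of -0.63 did not pass (adjusted p = 0.332). Over gene bodies, where 23.1% of all were called higher, 12 of 21 of these genes were, among them Socs1, the feedback inhibitor of JAK signalling (log2 fold 3.6). Downstream 4 of 20 were called higher, beside 10.8% of all regions.

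Of 20 interferon genes themselves, the ligands, tested upstream, 3 were called lower, beside 14.3% of all regions, and 0 higher (0 higher at an unadjusted p under 0.05 and 0 by DESeq2). The median log2 fold was -0.91, close to the -0.96 of the olfactory and vomeronasal receptor genes. Ifng fell from 79.9 and 66.3 CPM in the controls to 33 and 28.8 CPM (log2 fold -1.24, SE 0.49, adjusted p = 0.0337), Ifne had a log2 fold of -1.69 and Ifna9 one of -1.56. Ifnb1 had 57.3 and 55.5 CPM against 36.4 and 53.2 CPM and did not pass (adjusted p = 0.578). All 20 folds were below 0 with the scaling used. With scaling on olfactory and vomeronasal receptor genes 9 were above 0, the median was -0.03 and none was called, so the direction rests on the scaling. Downstream 2 of 20 ligand genes were called higher and 0 lower (0 lower at an unadjusted p under 0.05 and 0 by DESeq2), with a median of -0.15. The type I interferon genes lie mostly in 1 cluster and are near-identical copies in part, so reads may be shared among them.

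Induced genes outside the 35 were tested as a wider sample of the response. Upstream 9 of 49 were called higher and 1 lower, with a median log2 fold of 0.04, and over gene bodies 11 of 49 were called higher, with a median of 0.26. Downstream 4 of 46 were higher and 1 lower. These shares were below the 24%, 23.1% and 10.8% of all regions called higher in the 3 classes, so the wider response gave no more calls than the background. Those that rose upstream included Parp10 and Oasl1 with log2 folds of 2.21 and 2.11, Ifitm2 with 1.75 and Isg20 with 1.66, and the antigen-processing genes Tap1, Psmb8 and Psmb9 with 1.37, 1.2 and 1.15. The GTPase gene Iigp1 fell by 1.35 on the log2 scale (adjusted p = 0.0385).

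**Figure D5:**
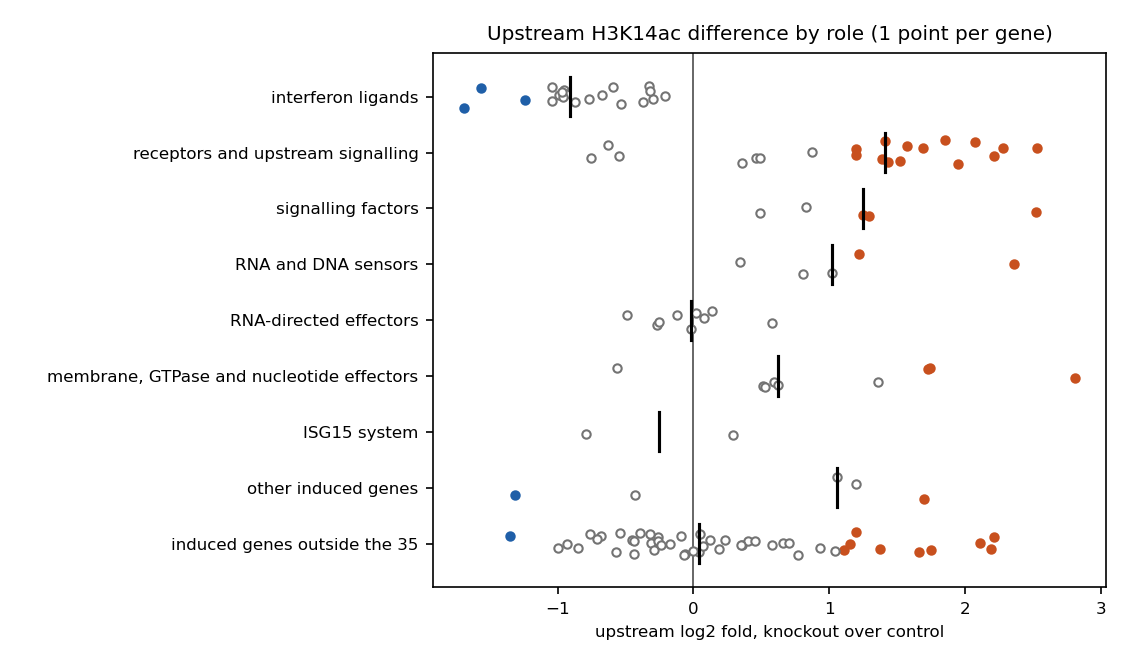
Upstream log2 fold, knockout over control, by role in the interferon system, 1 point per gene with small vertical scatter for legibility; filled points passed an adjusted p of 0.05 and black bars are medians. Ligands have a median of -0.91, receptors and upstream signalling genes 1.41 and RNA-directed effectors -0.02. With scaling on olfactory and vomeronasal receptor genes the medians of the ligands and the RNA-directed effectors are -0.03 and 0.85.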

How the data were processed

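H3K14ac was measured in 2 control and 2 knockout libraries, grouped by the genotype in the labels. Whole-number read counts per Entrez gene were made and deposited by the authors for each region class, per the file headers, and the submitters' processing notes name featureCounts and mm10. No aligner, annotation, duplicate handling or spike-in is given in the sources used here. CPM per kb used the length column of the deposited body table. Series tables and per-library files differed in 0 values.

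Each class was fitted on all its genes with edgeR 4.0.16 (R 4.3.3) and its quasi-likelihood test, 2 libraries per group and no covariate. Low regions were removed by filterByExpr at a minimum count of 10 and a total of 15, and libraries were scaled by TMM. Benjamini-Hochberg adjustment ran over every region tested in a class, at 0.05. CPM is TMM scaled, percentiles and ranks are over the regions tested, and the SE is the log2 fold divided by the root of F. The fit was tested on simulated counts. Symbols, starts, CpG ratios (from the genome sequence) and motifs came from RefSeq GRCm38.p6. CpG ratios covered all 35 members and the table of promoters held 27 of them, so motif shares are over the latter. The deposited length was within 20% of the RefSeq length for 33 members, but not for Ifi27l2a or Ifi47 (9917 against 20401 bases). For Ifi27l2a and Ifi47 the RefSeq start may differ from that of the counted regions. Python 3.11.15, pandas 2.3.3, numpy 2.4.6, pysam 0.24.0 and matplotlib 3.10.9 made the tables and plots.

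The members and gene lists were chosen with earlier results of these data known, so they give no independent support to any pattern. Named genes are all members called in a class, with the others by role, the targeted gene, and pathway genes from the fixed lists. Alternatives in scaling were library totals, DESeq2 1.42.0 size factors, pooled totals, and counts of the olfactory and vomeronasal receptor genes (receptor scaling). Others were the DESeq2 Wald test, a fit without the filter, a stricter filter (mean count 50 or more), leaving out each library, and a block for the replicate number. A crossed block was added after seeing the data. Same-numbered libraries did not deviate together, with correlations of -0.284 upstream, -0.359 over bodies and -0.22 downstream, and the labels give only numbers, so the libraries were not treated as paired.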

Additional observations from a re-analysis of the deposited data

How the results depend on the processing

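Upstream, the members called higher were 4 with library totals, 16 with pooled totals, 5 with a filter on mean counts under 50, and 0 to 4 with a library left out; the 1 called lower was 0 with pooled totals, receptor scaling, the Wald test or any library left out. Their median log2 fold was 0.35, 1.16, 1.58 and 0.81 with totals, pooled totals, receptor scaling and the stricter filter, beside -0.27, 0.46, 0.83 and -0.23 over all regions, and 0.40 to 1.08 with a library left out. Over bodies 5 members were called with the stricter filter and 2 to 11 with a library left out, and the median was 0.8 with totals, 1.08 with receptor scaling and 0.31 to 0.58 with a library left out. Downstream 2 were called with the stricter filter and 1 to 7 with a library left out (0 to 1 lower), and the median was 0.17 with totals, 0.69 with receptor scaling, 0.27 with the stricter filter and 0.31 to 0.56 with a library left out. Regions called in all were 3357, 5426 and 1089 upstream, over bodies and downstream with the stricter filter, 4615 over bodies with receptor scaling, and 0 to 2303, 1430 to 11313 and 695 to 4933 with a library left out. The causes were not tested, except that the stricter filter tests fewer regions and each left-out library leaves its group with 1, assumed to vary like the other group.

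With the replicate number as a block, 4 members were called higher and 0 lower upstream (4353 regions in all), 7 over bodies (3679 in all) and 5 downstream. With the crossed block, 13 members over bodies and, downstream, 7 higher and 1 lower were called, with 5187 regions in all.

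Signs turned at Mx1 upstream (0.01 with pooled totals, 0.4 with receptor scaling), at the Mx1 body (0.25 with totals, 0.12 with pooled totals, 0.55 with receptor scaling, 0.02 with the stricter filter) and at Kat7 downstream (-1.47 to 0.29 with a library left out, the latter without knockout replicate 2). Counting error, 2 libraries per group and unknown duplicate handling limit all values, most at windows with few counts such as Bst2.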
